A study of Mus musculus with 6 samples.

Results

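The 8 genes Dppa2, Dppa4, Dppa3, Ooep, Rhox5, Rhox9, Taf7l and Kit are known for their expression in germ cells, oocytes or very early embryos, and embryonic stem cells express several of them as well. They were taken by symbol, with every probe annotated to them, which gave 13 of the 27496 probes on the array and 8 of the 13165 genes with a probe. The set was chosen by a reading of these same arrays, that is of the signals and log2 values on all 6 arrays, among them the differences between Noggin and mock at day 4. The members' levels and differences are therefore a description and carry no test. The material was total RNA of the mouse embryonic stem cell line J1, hybridised to 1-colour bead arrays. Noggin binds and blocks bone morphogenetic proteins outside the cell. It was given at 150 ng/ml for 3 days before embryoid body culture and withdrawn on the second day of that culture. There is 1 Noggin array and 1 mock array for each of day 0, day 2 and day 4, where day 2 and day 4 are embryoid bodies grown without leukaemia inhibitory factor (LIF).

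Every group is 1 array, so no single difference has a replicate check, and the labels do not say which arrays came from separate cultures. The source names tell Noggin from mock, but the treatment entry of all 6 samples, mock included, reads as Noggin with LIF. The labels leave unsettled whether Noggin cells of day 0 were taken ahead of the 3 days of Noggin or at their end. Day and culture form cannot be told apart in comparisons with day 0. The array medians lay between 152 and 176.55 signal units and the lowest signals between 91.4 and 101.4, with no detection values, so a signal near the median cannot be told from background. The day 0 cells carried the stem cell markers Nanog at 12046.4 signal units in Noggin and 10527 in mock, and Zfp42 at 5006.6 in Noggin and 4637.2 in mock.

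Dppa2 and Dppa4 encode related DNA-binding proteins that work together on chromatin in mouse pluripotent cells and early embryos. Dppa3, also called Stella, is a maternal factor that protects DNA methylation marks in the mouse zygote and marks primordial germ cells. Ooep is a subunit of the subcortical maternal complex of the oocyte, Rhox5 and Rhox9 are X-linked homeobox genes of reproductive tissues, Taf7l encodes a germ cell variant of a subunit of the general transcription factor TFIID, and Kit is the receptor for stem cell factor that primordial germ cells, blood progenitors and melanoblasts depend on. Many germline genes are silenced in other mouse cells by DNA methylation of CG-rich promoters and by the repressors E2F6, MGA and MAX. Dppa2 and Dppa4 lie on chromosome 16 with 0 protein-coding genes between them in the RefSeq gene table.

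Promoters were at hand for Ooep, Rhox5, Taf7l and Kit, and they are shown because these 4 genes followed different courses over the days and because CG content is the feature through which such promoters are known to be silenced. The sequences are RefSeq windows of build GRCm38.p6, from 250 bases before to 50 bases after the gene start, and the capitals mark CG dinucleotides. The Ooep window is chr9:78378539-78378838 on the minus strand, that of Rhox5 chrX:37754358-37754657 on the plus strand, that of Taf7l chrX:134476441-134476740 on the minus strand and that of Kit chr5:75574737-75575036 on the plus strand.
Ooep: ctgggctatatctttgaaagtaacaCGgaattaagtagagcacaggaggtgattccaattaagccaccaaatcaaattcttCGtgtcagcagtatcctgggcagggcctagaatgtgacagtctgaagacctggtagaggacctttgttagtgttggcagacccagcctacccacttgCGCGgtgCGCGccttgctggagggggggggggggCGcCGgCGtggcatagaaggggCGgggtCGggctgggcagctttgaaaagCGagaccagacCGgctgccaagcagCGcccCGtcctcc
Rhox5: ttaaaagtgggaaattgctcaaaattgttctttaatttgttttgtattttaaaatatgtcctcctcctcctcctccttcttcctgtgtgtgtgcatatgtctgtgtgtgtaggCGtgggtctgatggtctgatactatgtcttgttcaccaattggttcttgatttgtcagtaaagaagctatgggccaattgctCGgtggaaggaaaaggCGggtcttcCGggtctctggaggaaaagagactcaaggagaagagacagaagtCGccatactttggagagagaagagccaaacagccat
Taf7l: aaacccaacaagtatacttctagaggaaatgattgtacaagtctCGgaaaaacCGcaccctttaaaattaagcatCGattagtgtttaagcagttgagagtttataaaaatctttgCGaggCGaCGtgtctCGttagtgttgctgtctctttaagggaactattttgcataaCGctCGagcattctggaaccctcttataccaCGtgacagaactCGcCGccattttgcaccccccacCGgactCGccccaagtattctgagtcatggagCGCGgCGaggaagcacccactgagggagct
Kit: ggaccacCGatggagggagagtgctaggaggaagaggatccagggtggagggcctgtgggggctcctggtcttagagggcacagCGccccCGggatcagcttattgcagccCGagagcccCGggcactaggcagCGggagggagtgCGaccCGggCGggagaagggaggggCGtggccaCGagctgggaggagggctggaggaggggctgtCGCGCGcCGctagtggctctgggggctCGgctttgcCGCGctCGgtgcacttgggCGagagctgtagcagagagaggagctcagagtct

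The Rhox5 window held 5 CG dinucleotides, fewer than the median of 7 over all 32851 windows of the same length in the table. The Ooep, Taf7l and Kit windows held 15, 17 and 20, more than 65.4%, 68.6% and 73.5% of all windows. The E-box letters CACGTG, bound by MGA and MAX, were found at 1 place in the Taf7l window, from position 202 counted from the 5′ end, and in none of the other windows shown; 7.15% of all windows held them. The letters TCCCGC, searched on both strands as an E2F6-like motif, occurred at 2 places in the Kit window and in none of the other windows shown, against 20% of all windows. The octamer ATTTGCAT, found in 1.74% of all windows, was in none of the 4. A match of letters is a description of the window and not a site.

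**Figure D1:**
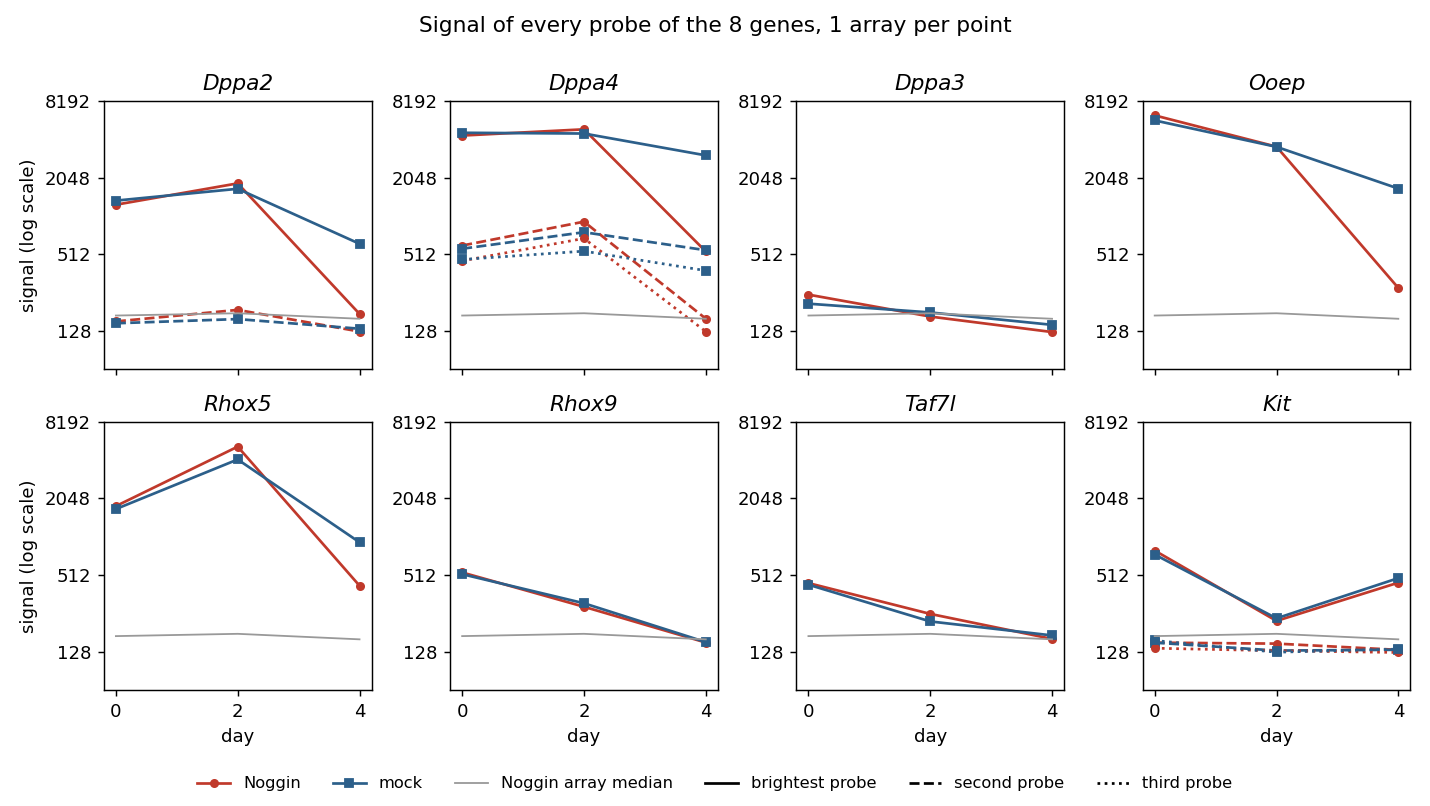
Signal of every probe of the 8 genes (y axis, raw signal units on a log scale) by day (x axis), with Noggin arrays as red circles, mock arrays as blue squares, 1 array per point, and the median of the Noggin arrays in grey. The Noggin and mock lines run together at day 0 and day 2, and those of Dppa2, Dppa4, Ooep and Rhox5 part at day 4.

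The clearest pattern was a gap at day 4 between Noggin and mock in 4 of the 8 genes, Ooep, Dppa4, Dppa2 and Rhox5, in an otherwise similar course. Ooep was 7.22-fold lower, Dppa4 6.18-fold lower, Dppa2 4.8-fold lower and Rhox5 2.34-fold lower on the Noggin array than on the mock array of that day. Dppa3, Rhox9, Taf7l and Kit differed by at most 1.39-fold there. Fold changes and log2 differences here are those of each gene's brightest probe after background correction and quantile normalization, and signals are as deposited. Among all 8903 genes whose brightest probe exceeded the median signal on 2 or more arrays, 1.4% were at least 2-fold lower and 1.33% at least 2-fold higher at day 4. Beside this stand 4 and 0 of the 8 members, a count from which nothing is read, since the genes were chosen on this contrast. All 8 brightest probes passed that filter, while the second Dppa2 probe and both other Kit probes did not. The median difference of the 8 genes at day 4 was -0.85, beside 0.02 over the 8903 genes. It falls between the 4 genes with the gap and the 4 without, so it describes no single gene. Nothing is read from it either, for the same reason as for the count. In the authors' series matrix, whose log2 values hold no background correction, the day 4 differences were smaller in size, at -2.55 for Ooep, -2.49 for Dppa4, -1.81 for Dppa2 and -1.10 for Rhox5, and between -0.27 and -0.07 for the other members.

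**Figure D2:**
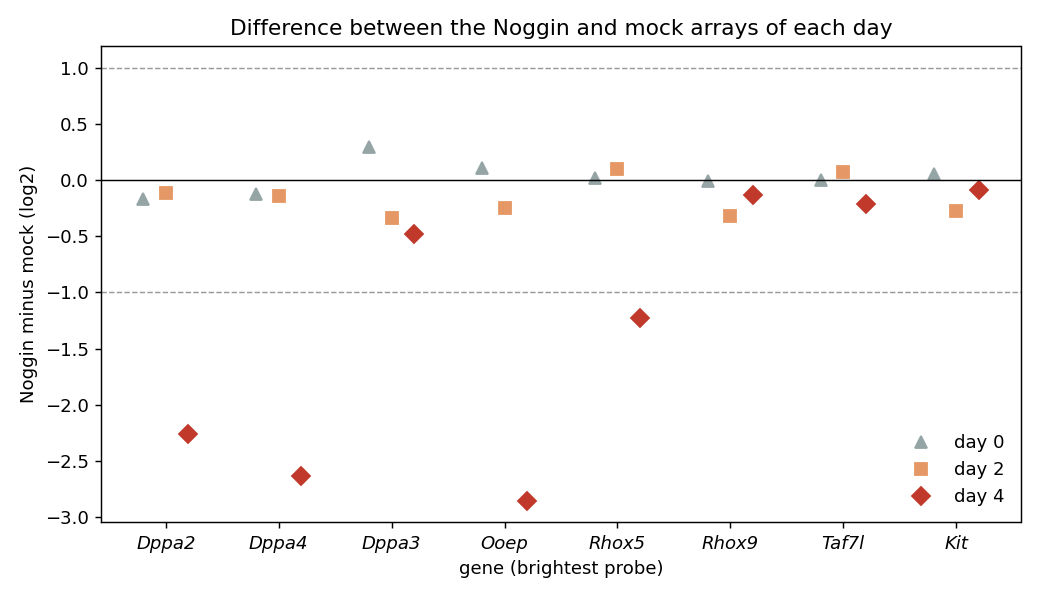
Difference between the Noggin and mock arrays of the same day for the brightest probe of each gene (y axis, log2), with triangles for day 0, squares for day 2, diamonds for day 4 and dashed lines at 2-fold. Only day 4 differences of Dppa2, Dppa4, Ooep and Rhox5 pass the dashed line, at -2.26, -2.63, -2.85 and -1.22.

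Ooep, the oocyte gene, had signals of 6322.3, 3588.5 and 278.9 at days 0, 2 and 4 on the Noggin arrays, against 5771.7, 3579 and 1683.4 on the mock arrays. Signals of both treatments were nearly the same at day 0 and day 2, and the day 4 Noggin array was the lowest of all 6. The normalised difference between Noggin and mock was 0.11 at day 0, -0.25 at day 2 and -2.85 at day 4. Between day 2 and day 4 the Noggin arrays differed by -3.74 and the mock arrays by -1.14 on the log2 scale. Over the 4 days this added up to a 28.4-fold lower level on the Noggin arrays and a 3.64-fold lower level on the mock arrays. Of the 8903 genes, Ooep was the fifth from the lowest difference at day 4.

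Dppa4 was carried by 3 probes, all annotated to the same transcript. Its brightest probe gave 4390.1, 4913.1 and 539.4 at days 0, 2 and 4 on the Noggin arrays, against 4615.8, 4553.6 and 3067.7 on the mock arrays. The mock level at day 4 was thus nearer to its earlier levels, while the Noggin level stood far below all other arrays. The dimmer probes gave 600.6, 924.8 and 160.1, and 455.3, 683.4 and 126.8 on the Noggin arrays, against 567, 764.3 and 552.1, and 466.8, 542.8 and 381.7 on the mock arrays. The 3 probes differed between Noggin and mock at day 4 by -2.63, -2.28 and -2.26, and by at most 0.14 in size at day 0 and day 2. They share their arrays and target, so they are not replicates of the condition. From day 2 to day 4 the brightest probe differed by -3.10 on the Noggin arrays and by -0.61 on the mock arrays.

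Dppa2, the neighbour and partner of Dppa4, gave 1256.9, 1848.9 and 174.5 on the Noggin arrays at days 0, 2 and 4, against 1353.4, 1676 and 620.1 on the mock arrays. Both treatments were highest at day 2, and the Noggin array at day 4 was the lowest, just above its array median of 159.8. Its difference between Noggin and mock was -0.16 at day 0, -0.12 at day 2 and -2.26 at day 4. Unlike Dppa4, it was also well below its day 2 level on the mock arrays, with a difference of -1.56 between day 4 and day 2, beside -3.71 on the Noggin arrays. The dimmer Dppa2 probe stayed between 126.9 and 187.6 on all 6 arrays, around the array medians, and differed by -0.29 at day 4. The mean over both probes was accordingly smaller at day 4, at -1.28.

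Rhox5, the homeobox gene, had its highest levels at day 2. Its signals were 1777.5, 5210.1 and 421.6 at days 0, 2 and 4 on the Noggin arrays, against 1685.8, 4132.2 and 924.3 on the mock arrays. Between day 0 and day 2 the difference was 1.40 on the Noggin arrays and 1.32 on the mock arrays, the only member above 2-fold higher in that step. In the step to day 4 it was -3.55 on the Noggin arrays and -2.23 on the mock arrays. The difference between Noggin and mock was 0.02 at day 0, 0.10 at day 2 and -1.22 at day 4. Rhox5 was thus below its day 0 level at day 4 in both treatments, with differences of -2.15 in Noggin and -0.91 in mock.

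Rhox9 and Taf7l, the other X-linked members, were lower at each later day in both treatments. Rhox9 gave 535.5, 288 and 150.8 on the Noggin arrays at days 0, 2 and 4, against 519.2, 306.8 and 152 on the mock arrays. Taf7l gave 441.8, 253.1 and 161 on the Noggin arrays, against 429.2, 220.9 and 171.5 on the mock arrays. At day 4 Rhox9 did not exceed the array medians, which were 159.8 in Noggin and 152 in mock, and Taf7l just above them. The Noggin and mock arrays of a day lay close together for both genes, with day 4 differences of -0.13 for Rhox9 and -0.21 for Taf7l. At signals so near the floor a difference between treatments at day 4 was not detectable, which does not show that none existed. The size of the difference between day 4 and day 0 depended on the background setting. For Rhox9 it was between -2.84 and -1.76 in Noggin and between -2.65 and -1.69 in mock over the settings tried, and for Taf7l between -2.25 and -1.38 in Noggin and between -1.95 and -1.24 in mock. The Rhox genes form a cluster of similar copies, and how far the Rhox9 probe tells them apart was not tested.

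Dppa3 was dim throughout. It gave 247.3, 166.3 and 125.7 on the Noggin arrays at days 0, 2 and 4, against 209.9, 179.1 and 143.2 on the mock arrays. It stood above the array median at day 0 in both treatments and at day 2 in mock, and below it on the other 3 arrays. Its differences between Noggin and mock, 0.30, -0.34 and -0.48 at the 3 days, are compressed by that floor, and the day 4 value moved to -0.27 without background correction and to -0.83 with an offset of 16.

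Kit, the stem cell factor receptor, took a course of its own, low at day 2 and higher again at day 4 in both treatments. Its brightest probe gave 795.7, 223 and 445.3 on the Noggin arrays at days 0, 2 and 4, against 740.6, 233.6 and 483.5 on the mock arrays. The Noggin and mock arrays of the same day nearly coincided, with differences of 0.05, -0.28 and -0.09. Between day 0 and day 2 Kit differed by -2.31 in Noggin and by -1.98 in mock, and from day 2 to day 4 by 1.48 in Noggin and 1.29 in mock, the only member with a higher level at day 4 than at day 2. The other probes, annotated to different Kit transcripts, stayed between 126 and 156.5 on all arrays, below the array median on each, and are too dim to show a course.

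**Figure D3:**
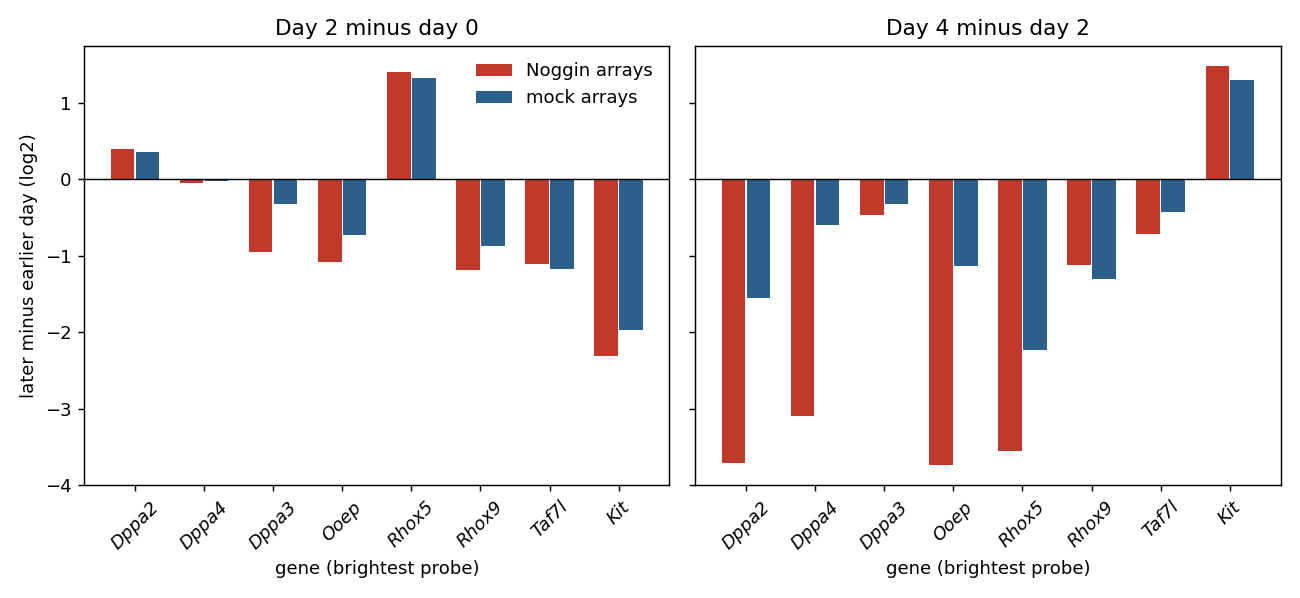
Difference between days for the brightest probe of each gene (y axis, log2), day 2 minus day 0 on the left and day 4 minus day 2 on the right, with red bars for the Noggin arrays and blue bars for the mock arrays. Rhox5 and Dppa2 are above 0 in the first step, Kit alone in the second, and the red bars of Dppa2, Dppa4, Ooep and Rhox5 lie between -3.10 and -3.74 in the second.

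Set against the background of each step, from day 0 to day 2 at least 2-fold lower levels were found for 4 members in Noggin (Ooep, Rhox9, Taf7l and Kit) and 2 in mock (Taf7l and Kit), where 5.35% and 4.2% of the 8903 genes were. At least 2-fold higher in that step was 1 member in each treatment, Rhox5, beside 3.73% of genes in Noggin and 3.35% in mock. From day 2 to day 4, 5 members in Noggin and 4 in mock were at least 2-fold lower, beside 3.92% and 1.84% of genes. In mock these were Dppa2, Ooep, Rhox5 and Rhox9, and Noggin added Dppa4. Kit alone was at least 2-fold higher in that step in each treatment, beside 6.23% of genes in Noggin and 3.92% in mock. Over the whole course, 7 members in Noggin, all but Kit, and 4 in mock (Dppa2, Ooep, Rhox9 and Taf7l) were at least 2-fold lower, beside 7.09% and 4.63% of genes. The 8 genes were chosen with all these values known, so nothing is read from the counts. Some of these calls lay close to 2-fold. Without background correction or in the series matrix, 2 members in Noggin (Ooep and Kit) and 1 in mock (Kit) were at least 2-fold lower in the step to day 2, and neither Rhox9 in the step to day 4 nor Dppa3 over the whole course was so any longer. Kit passed neither step in either treatment with the mean over its probes. At day 0, 0 members and 0% of genes, and at day 2, 0 members and 0.0337% of genes, were at least 2-fold lower in Noggin than in mock.

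Over the 6 arrays the members followed unlike courses, given as Pearson correlations of normalised log2 levels with no test, since the arrays share days. Dppa2 and Dppa4 correlated at 0.973, Ooep with them at 0.939 and 0.962, and Rhox9 with Taf7l at 0.963. Rhox5 and Taf7l correlated at 0.371, and Kit at -0.576 with Rhox5 and -0.24 with Dppa2. Among 2292 genes with a range of at least 1 on the log2 scale, those most like each member over the 6 arrays were named by that correlation. For Ooep these were Gdf3, a growth factor gene of pluripotent cells, at 0.999, Cbx7, a Polycomb subunit gene, at 0.995 and Smagp at 0.995. For Dppa4 they were Zfp819 at 0.996, Dnmt3l, a methyltransferase cofactor gene active in germ cells, at 0.994 and Rap1gap at 0.99. For Dppa2 they were Plekhd1 at 0.996, Fancl, a DNA repair gene, at 0.995 and Tcea3 at 0.993. Taf7l was closest to Smc1b, which encodes a meiotic cohesin subunit, then to Cd81 and Spata31d1a, each at 0.999 or above. Rhox5 was closest to Angptl4, Acot7 and Zfp462, Rhox9 to Crtap, Krt17 and Chka, Dppa3 to Cep41, Sh3gl2 and Plpp1, and Kit to the heat shock gene Hspb8, Fbxo6 and Rgs16. The closest genes were picked for a high value out of 2292 candidates, over 6 points each.

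Markers of several cell types differed between the arrays as well. Of 14 genes of naive pluripotent stem cells with a probe, 9 were at least 2-fold lower and 1, Tbx3, at least 2-fold higher in Noggin than in mock at day 4. Their summed signal was 63757, 22352.2 and 11296.7 on the Noggin arrays at days 0, 2 and 4, against 60531.2, 23324.3 and 23917.7 on the mock arrays. The summed signal of 6 primitive streak and early mesoderm genes ran the other way at day 4, at 13173 in Noggin and 5491.3 in mock. Of these genes 4 were at least 2-fold higher in Noggin, while Gsc was lower, at 1135.3 against 1775.6 in mock. Fibroblast genes, which feeder cells would bring, summed to less after day 0. The summed signal of the 5 with a probe was 3910.9, 1769.2 and 1061.6 on the Noggin arrays at days 0, 2 and 4, against 3198.8, 1309.5 and 1303.3 on the mock arrays. Of the 3 above the filter, Dcn, a matrix proteoglycan gene, fell by 4.63 between day 0 and day 4 over both treatments (SE 0.322, limma adjusted p = 0.000701) and Thy1, a surface glycoprotein gene, fell by 1.58 (SE 0.143, limma adjusted p = 0.00115). Acta2 differed by -0.66 and did not pass (SE 0.236, limma adjusted p = 0.0709). In such bulk RNA, fewer cells of a type and less RNA per cell cannot be told apart, and the part of these cell types in the differences of the members and of the other germline genes below was not tested.

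Kit is also a gene of blood precursors and melanoblasts, so their markers are set beside it. The 9 blood and endothelial genes with a probe summed to 1833.2, 2310.1 and 5131.1 at days 0, 2 and 4 on the Noggin arrays, against 1792.6, 1826.3 and 2686.2 on the mock arrays, while 4 of them (Gata1, Runx1, Cdh5 and Hbb-bh1) did not pass the filter. The 4 neuroectoderm and neural crest genes with a probe summed to 1391.1, 652.5 and 649.4 at days 0, 2 and 4 in Noggin, against 1317.7, 618.6 and 741.1 in mock, and the melanocyte gene Dct did not pass the filter. Most of the day 0 sum came from Mitf, a transcription factor gene of melanoblasts, with signals of 971.6, 205.9 and 166.7 in Noggin, against 879.2, 194.9 and 191.3 in mock. Mitf fell by 2.70 up to day 2 over both treatments (SE 0.138, limma adjusted p = 0.000743), the step in which Kit was also lower, and its signal was no higher at day 4 than at day 2. The other genes of that list above the filter differed from it in the step to day 4. Nes rose by 1.66 (SE 0.138, limma adjusted p = 0.00225). Pax6 fell by 0.64 (SE 0.111, limma adjusted p = 0.0127), to signals below the array medians. The Kit level at day 4 was nearly the same in both treatments, and the blood and endothelial sum was higher in Noggin. Etv2 gave the largest part of that sum, at 2584.5 in Noggin and 1281.1 in mock. Of the 5 genes above the filter, 4 were at least 2-fold higher in Noggin at day 4. Pecam1 was at least 2-fold lower after background correction, at -1.13, with signals of 124.1 in Noggin and 196.6 in mock. The Noggin signal lay below its array median of 159.8, so the size of that difference is limited by the floor. The part of either cell type in the level of Kit was not tested.

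Other germline genes, and genes of Kit signalling, were looked up in lists, and on them the days were tested with limma, over both treatments together. The lists were chosen with earlier results of these data known. Their counts and medians, here and below, are therefore a description beside the values of all genes, and nothing is read from the contrast. Of 112 genes listed, 54 had a probe and 33 passed the filter. The 33 include 9 genes of Kit signalling, which are not germline genes as such, and the counts over the 33 hold both. From day 0 to day 4, 15 of the 33 fell and 3 rose at a limma adjusted p under 0.05, beside 19.7% of all 8903 genes that fell and 22.1% that rose. The median difference of the 33 was -0.38, beside 0.0015 over all genes. The filter takes a gene that exceeds the median on any 2 arrays. A gene that passed only through its early arrays could hardly do other than fall by day 4. Such genes are in the counts here and below, and in the shares of all genes. Among methylation-sensitive germline and meiotic genes 6 of 10 fell and 0 rose, and among oocyte genes 5 of 6 fell and 0 rose. Among primordial germ cell genes 2 of 7 fell and 1 rose, among genes of Kit signalling 1 of 9 fell and 2 rose, and the 1 measured Rhox gene, Rhox13, fell. None of the 6 Dppa family and early cleavage genes with a probe passed the filter.

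Tex19.1, which restrains transposons in the germline, fell by 3.46 on the log2 scale from day 0 to day 4 (limma, SE 0.377, adjusted p = 0.00185). Its signals at days 0, 2 and 4 were 2232.8, 1123.4 and 169.6 on the Noggin arrays, against 2315.3, 1061.8 and 419.1 on the mock arrays. Signals were lower at each later day in both treatments, and lowest on the day 4 Noggin array. Rhox13, the homeobox gene of the same cluster as Rhox5, fell by 2.97 (SE 0.243, limma adjusted p = 0.000923), with signals of 990, 510.1 and 143.1 in Noggin, against 932.2, 402 and 204.2 in mock. Tfap2c, a transcription factor of primordial germ cells, fell by 2.64 (SE 0.263, limma adjusted p = 0.00144), with a difference of -2.95 already at day 2, and Tex14, a gene of germ cell bridges, fell by 2.49. Of the 15 that fell, 6 were above the array median on both day 4 arrays and 3 (Rhox13, Tex14 and Uchl1) on the mock array only. The other 6 were above it on neither day 4 array, so that their fall passed the test but its size is limited by the floor. These 6 passed the filter only through arrays of day 0 or day 2, so the direction of their fall is not independent of the filter. They were the Piwi protein gene Piwil2, Khdc3, a partner of Ooep in the subcortical maternal complex, the meiotic gene Tex11, the RNA-binding protein gene Dazl, the egg coat gene Zp3 and the oocyte transcription factor gene Sohlh2. Khdc3, for example, was at 134.6 in Noggin and 128.3 in mock at day 4. The genes that rose were Ptpn11, a phosphatase gene downstream of Kit, by 0.91, Lin28a, a repressor of let-7 maturation, by 0.66, and the adaptor gene Sh2b3 by 0.49.

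**Figure D4:**
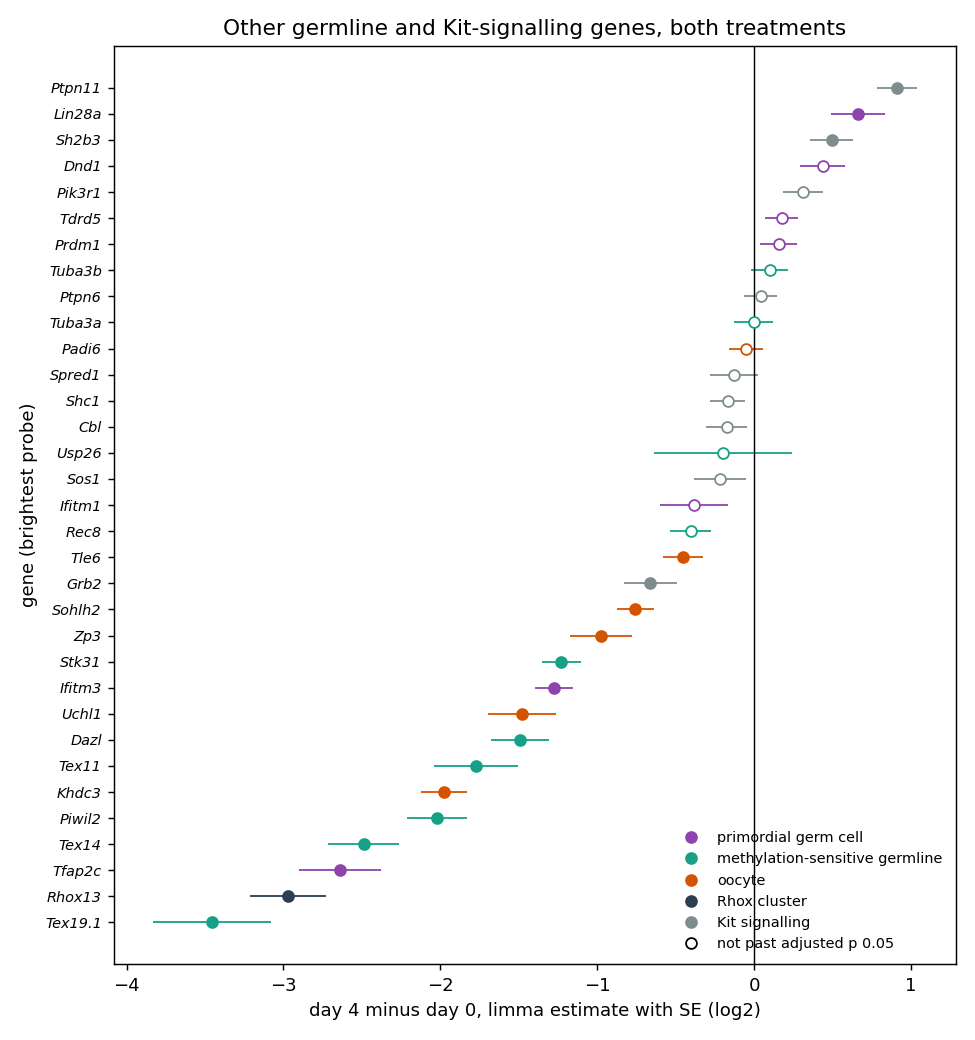
Estimated difference between day 4 and day 0 over both treatments (x axis, log2, with its standard error) for the 33 other germline and Kit-signalling genes above the filter, coloured by list, with filled points past an adjusted p of 0.05 in limma. Tex19.1, Rhox13 and Tfap2c lie farthest to the left, at -3.46, -2.97 and -2.64, and Ptpn11 farthest to the right, at 0.91.

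The steps differed between these genes. From day 0 to day 2, 10 of the 33 fell and 3 rose in limma, beside 14.6% and 15.4% of all genes. The differences were -2.95 for Tfap2c, -1.97 for Tex14 and -1.48 for Piwil2, and Dnd1, which encodes an RNA-binding protein of primordial germ cells, rose by 1.14. From day 2 to day 4, 12 fell and 2 rose, beside 13% and 15.1% of all genes. Those that fell were led by Tex19.1 at -2.28, Uchl1, a ubiquitin hydrolase gene of oocytes and neurons, at -1.81, Rhox13 at -1.73 and Usp26, an X-linked testis gene, at -1.67, while Prdm1, a specifier of primordial germ cells, rose by 0.72 and Ptpn11 by 0.56.

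These counts changed when 1 array was left out. For the step to day 2, where 13 genes passed in both directions together, 1 passed without the Noggin day 0 array, 4 without the mock day 0 array, 4 without the Noggin day 2 array, 5 without the mock day 2 array, and 23 without either day 4 array. For the step from day 2 to day 4, where 14 passed, 9 passed without the Noggin day 0 or the mock day 0 array, 0 without the Noggin day 2 array, 1 without the mock day 2 array and 22 without the mock day 4 array. Between day 0 and day 4, where 18 passed, 8 passed without the Noggin day 0 array. These fits have 1 residual degree of freedom, against 2 with all arrays, and the part of that loss in the changes was not tested.

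Between Noggin and mock averaged over the 3 days, 0 of the 33 genes passed in limma in either direction, with 1 at an unadjusted p under 0.05, and 0% of all genes did, while 468 of 15364 probes had an unadjusted p under 0.05. In this contrast a gap confined to day 4 is averaged over the 3 days and also adds to the residual spread. It could hardly detect such a gap, so nothing is read from the 0. At day 4, where there is 1 array a side and no test, 3 of the 33 were at least 2-fold lower in Noggin and 0 at least 2-fold higher, beside the 1.4% and 1.33% of all genes given above. These were Usp26 at -1.74, Tex19.1 at -1.68 and Tfap2c at -1.18. Usp26 had signals of 705.5, 2140.2 and 346.8 on the Noggin arrays at days 0, 2 and 4, against 667.9, 1672 and 1029.2 on the mock arrays, with the highest level at day 2 in both treatments, like Rhox5. The highest differences were those of Ifitm1 at 0.56, Sos1 at 0.50 and Spred1 at 0.46. The median difference at day 4 was -0.57 for the 10 methylation-sensitive genes, -0.19 for the 7 primordial germ cell genes, 0.00470 for the 6 oocyte genes and 0.15 for the 9 genes of Kit signalling. Of the 11 oocyte genes with a probe, only 1 in Noggin and 2 in mock exceeded the array median at day 4. The oocyte value is thus limited by the floor and does not show that no difference existed.

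The genes of DNA methylation and of germline repression were listed as well, since they act on such promoters in mice. From day 0 to day 4, 8 of 19 fell and 4 rose in limma over both treatments, beside the 19.7% and 22.1% of all genes given above. Dnmt3l, the cofactor of the de novo methyltransferases, had signals of 6051.1, 4940.1 and 259.7 at days 0, 2 and 4 on the Noggin arrays, against 6436.6, 5306.5 and 2602.1 on the mock arrays. It was near its earlier level at day 2 in both treatments and lowest on the day 4 Noggin array, where the difference from mock was -3.64. Dnmt3b, a de novo methyltransferase, had signals of 7046.4, 22643.7 and 12535 on the Noggin arrays, against 6065.4, 17338.9 and 13225.2 on the mock arrays, and rose by 1.50 in the step to day 2 (SE 0.122, limma adjusted p = 0.0015). L3mbtl2, of the same repressor complex as E2F6 and MGA, fell by 1.10 over all 4 days (SE 0.168, limma adjusted p = 0.00479), and E2f6 itself rose by 0.60 (SE 0.144, limma adjusted p = 0.0209). Mga went the other way and fell by 0.39 (SE 0.118, limma adjusted p = 0.0448). Max differed by -0.39 and did not pass (SE 0.125, limma adjusted p = 0.052). Methylation was not measured, and the part of these genes in the members' levels was not tested.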

How the data were processed

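Each deposited array table lists a single intensity per probe, unscaled between arrays per the file headers and values, and the authors' series matrix holds log2 values that equalled the quantile-normalised log2 intensity. Array probes were linked to annotated matrix rows by their 6 values within 0.006, which joined 27491 of 27496 probes. 19419 probes had 1 symbol, 6 had several and 8071 had none. Intensities were corrected with normexp (offset 50), quantile-normalised and log2-transformed (limma 3.58.1, R 4.3.3). A gene is represented by its brightest probe on average, and a probe was kept if its signal exceeded the median of 2 or more arrays (15364 kept). The limma model held day and treatment as additive terms, with 2 residual degrees of freedom, and p-values were adjusted by Benjamini-Hochberg over all 15364 probes at 0.05. They measure only the spread between these arrays, and the number of arrays limits the precision.

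All 8 genes are named with every probe, other list genes where they passed limma (at most 8 per direction by size, with Zp3, Sohlh2 and Uchl1 added to complete a count) or were among the 3 highest or 3 lowest differences at day 4, and for each of the 8 the 3 most correlated genes with a range of at least 1. Mitf, Dcn, Thy1, Dnmt3b, Dnmt3l, L3mbtl2, E2f6, Mga, Max and the cell type markers were named after their values were seen. The members and lists were chosen with earlier results of these data known. The test was checked on simulated arrays with independent noise of equal size for all probes and the same change in both treatments. That check does not cover the floor or gaps between treatments on a single day. Alternatives were other background settings, median scaling, the series matrix, no filter, the mean over probes, other models and leaving out each array. Proteins, and promoters of the other 4 members, were not analysed here. The scanner software is not given in the sources used here.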

Additional observations from a re-analysis of the deposited data

How the results depend on the processing

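Of the 8 genes, 4 were at least 2-fold lower in Noggin than in mock at day 4 under every one of the 6 other settings tried. Of 34 member differences of at least 2-fold, all 204 values under those settings had the same sign and 185 were still at least 2-fold. These settings are not 6 separate checks. Leaving out the filter does not change a member's value by construction. The series matrix holds nearly the same values as the setting without background correction. The mean over probes changes only Dppa2, Dppa4 and Kit. The median difference of the 8 genes at day 4 was -0.85, against -0.69 without background correction, -0.69 in the series matrix and -1.07 with an offset of 16. At day 2 it was -0.19, against -0.0128 with median scaling and -0.0260 with the mean over a gene's probes. At day 2 the small differences of Dppa2 and Dppa4 changed sign with median scaling, to 0.07 and 0.04, so no direction is read there. The count of other germline and Kit-signalling genes from day 0 to day 2 was 13, against 7 with an offset of 16. Leaving out 1 array gave 1 to 23 genes from day 0 to day 2, 8 to 24 from day 0 to day 4 and 0 to 22 from day 2 to day 4, with 1 residual degree of freedom; the cause was not tested. Other settings for these counts stayed within 1.5 times. Between Noggin and mock averaged over days the limma count was 0 in every setting, but that contrast could hardly detect a gap confined to day 4. No paired analysis was possible because each group is 1 array, so no replicate numbers pair arrays. The limma contrast between Noggin and mock already compares the arrays within each day. Signals near the array median limit what can be seen of Dppa3, Rhox9, Taf7l and several other germline genes at day 4.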
